A study of Mus musculus with 15 samples.

Results

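The transcripts of 5 genes of the MHC class II pathway were followed in the RNA of circulating extracellular vesicles (EVs). These genes were Cd74, H2-Aa, H2-Ab1, H2-Eb1 and H2-DMa, taken by symbol from the 43472 gene rows of every count table. In all, 13281 of these rows held a count in at least 1 library. The tables covered 15 libraries, with 3 from wild type (WT, C57BL/6) mice, 6 from dystrophic mice that lack Sgcb, the beta-sarcoglycan gene, and 6 from hypertrophic mice. The sample labels give the hypertrophic genotype as MAGIC F1, a Met-activating transgenic line, whereas the methods of the study give myostatin-null mice for this sequencing, so only the condition was used. No mouse was treated, all mice were 3 to 6 months old, and the methods give 2 to 3 mice for a sample of EVs. The methods list fewer mice of each line than 6 separate pools would need. Libraries of a condition may therefore share mice, although the tests treat them as independent. The labels name serum and the methods name plasma as the source. The RNA was amplified before the libraries were made, and p-values below measure only the spread between libraries.

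MHC class II molecules display peptides from endosomes to CD4+ T cells. An alpha and a beta chain, H2-Aa with H2-Ab1 for the A molecule, assemble in the endoplasmic reticulum on the invariant chain, which Cd74 encodes. In the endosome the invariant chain is degraded, and the H2-DM heterodimer, of which H2-DMa is the alpha chain, exchanges its last fragment for a peptide. B cells, dendritic cells and activated macrophages express these genes strongly, under the coactivator Ciita, and EVs that B cells and dendritic cells release are known to carry class II molecules. C57BL/6 mice have the b haplotype, in which H2-Ea is not transcribed, so that H2-Eb1 has no alpha chain partner at the surface.

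Class II promoters share a short module, known as the S, X and Y boxes, whose Y box is bound by the CCAAT factor NF-Y. To show what the chain genes have in common upstream, the promoter stretches of an alpha and a beta chain gene are printed 5′ to 3′ on the strand of the gene, from RefSeq with build GRCm38.p6. Capitals mark the motif CTGATTGG, which was chosen after the sequences were read. The stretch of H2-Aa lies at chr17:34287857-34287919 on the minus strand and that of H2-Eb1 at chr17:34305760-34305822 on the plus strand.
H2-Aa: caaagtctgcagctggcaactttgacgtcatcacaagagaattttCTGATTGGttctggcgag
H2-Eb1: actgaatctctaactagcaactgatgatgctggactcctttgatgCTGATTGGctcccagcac
The motif began 51 bases before the start of H2-Aa and 62 bases before that of H2-Eb1. On both strands of the 250 bases before a start, 3.83% of the 32851 promoters in the RefSeq table held it. Among the 11 class II chain and peptide loading genes, 8 had a promoter in the table and 4 of these held the motif, namely H2-Aa, H2-Eb1, H2-Eb2 and H2-Oa. Neither of the promoters of H2-DMa in the table held these letters. The shorter core ATTGG, the reverse complement of CCAAT, lay 198 bases before a start of H2-DMa and was also held by H2-DMb1, H2-DMb2 and H2-Ob. Of all promoters, 33.9% held this core. Cd74 and H2-Ab1 had no promoter in the table. H2-Aa also held TGACGTCA, the cyclic AMP response element, as did 1.55% of promoters.

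Depth and complexity differed widely between libraries. Between 27227 and 32563362 reads were counted on genes, and between 797 and 8968 genes had at least 1 count. Levels are given as CPM, the counts of a gene scaled to 1000000 reads on genes. Where no read was counted, the depth allows a level of up to 3 counts, a limit of 0.0921 to 110 CPM depending on the library. These limits, and the Wilson intervals below, cover counting error only. WT replicate 1 was the shallowest library, with 27227 reads. In 6 libraries (dystrophic replicates 4, 5 and 6 with hypertrophic replicates 1, 2 and 3) titles and count tables carried different library numbers, crossed between both conditions. Detection, the edgeR fit of the members and the separation of Cd74 were therefore also computed with these 6 exchanged. The library numbers fell into a lower and a higher series. By count table, all WT-derived and dystrophic-derived libraries were in the lower series and all hypertrophic-derived ones in the higher. By title, replicates 4, 5 and 6 of both dystrophic and hypertrophic libraries were in the higher series and the others in the lower. A difference of hypertrophic libraries from the rest thus cannot be told apart from the series of the count tables. Replicate numbers only name libraries.

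The 5 genes together held between 510 and 3053 CPM of the reads of a library. All 5 were above 3 counts in 7 of 15 libraries, which had 3705 to 8968 genes detected. In the other 8 libraries, with 797 to 3714 genes detected, at least 1 of the 5 was at 3 counts or fewer. The summed level ranged from 1249 to 2005 CPM in WT-derived, from 1564 to 2776 CPM in dystrophic-derived and from 510 to 3053 CPM in hypertrophic-derived libraries, so that all ranges overlapped. In bulk RNA, fewer vesicles from a cell type and less transcript in each vesicle cannot be told apart.

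**Figure D1:**
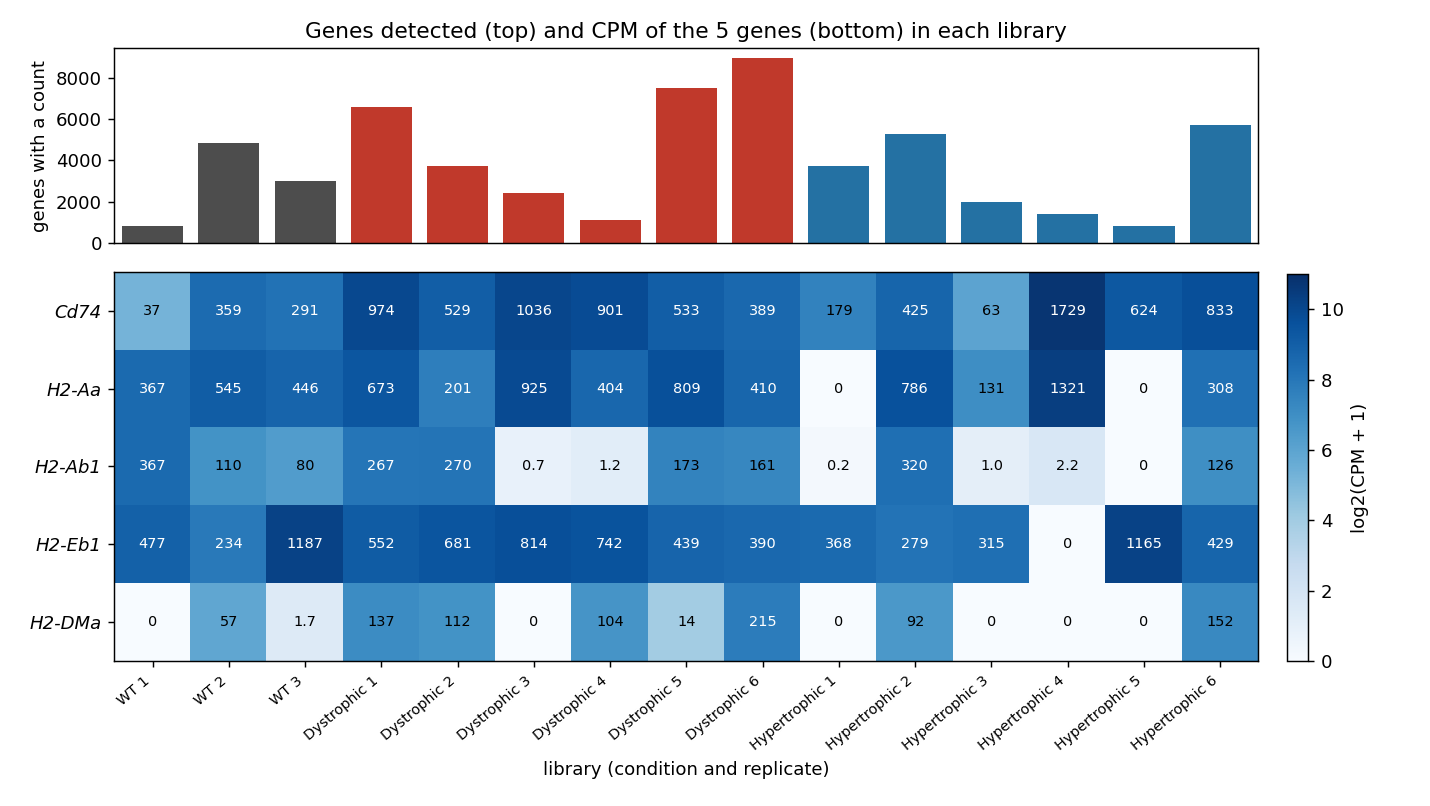
Number of genes with at least 1 count (top, bars coloured by condition) and level of the 5 genes in CPM (bottom, colour as log2(CPM + 1)) in each of the 15 libraries. Cd74 was found in every library, whereas H2-DMa was at 0 in 6 libraries.

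Cd74, the invariant chain gene (ENSMUSG00000024610.15, chromosome 18, 60803848 to 60812652, plus strand, GRCm38), was detected in 15 of 15 libraries. The WT-derived libraries held 36.7, 359 and 291 CPM, of which the lowest, in replicate 1, was a single read with a 95% Wilson interval of 6.48 to 208 CPM. The dystrophic-derived libraries ran from 389 CPM through a median of 717 to 1036 CPM. All 6 lay above all 3 WT-derived libraries, of which the highest reached 359 CPM. The hypertrophic-derived libraries ran from 63.5 CPM through a median of 525 to 1729 CPM and overlapped both other conditions.

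Over the 6 dystrophic-derived libraries Cd74 averaged 727 ± 275 CPM (SD), and over the 3 WT-derived libraries 229 ± 170 CPM (SD), a ratio of 3.18. On log2(CPM + 1), the difference was 2.11 and the exact two-sided permutation test gave p = 0.0238, the smallest that 6 against 3 libraries can give. This p was not adjusted, and it is 1 of 15 such tests over the 5 genes and 3 comparisons. For the other 14, p ranged from 0.134 to 0.81, with the smallest possible p at 0.00216 for 6 against 6. Cd74 was the only member whose groups did not overlap, and it did so in 1 of 3 comparisons. Of the 6887 genes fitted below, 0.479% had every dystrophic-derived library above every WT-derived one. Groups that did not overlap in either direction were found for 0.755% of the genes in this comparison, 0.45% for hypertrophic against WT and 0.16% for hypertrophic against dystrophic.

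The separation of Cd74 was narrow. The lowest dystrophic-derived value, 389 CPM in replicate 6, stood next to 359 CPM in WT replicate 2, and with CPM scaled by TMM factors 5 of 6 dystrophic-derived libraries were above every WT-derived one (lowest 448, highest WT 489 CPM). The count was also 5 of 6 without mitochondrial and hemoglobin genes in the total, and 4 of 6 with the 6 libraries exchanged. Without the single-read WT replicate 1, the ratio of means was 2.24, and among the 9 libraries with matching numbers it was 3.70. As all 6 dystrophic-derived libraries lay above all WT-derived ones, leaving libraries out could not undo the separation and does not test it.

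The T cell marker list was also apart between dystrophic-derived and WT-derived libraries. Its 10 genes summed to 357 to 1591 CPM in dystrophic-derived libraries and 0 to 138 CPM in WT-derived libraries, with 10 and 4 of the genes detected. Of the 13281 genes with a count, 89.5% had one in the 6 dystrophic-derived and 45.2% in the 3 WT-derived libraries. With the 6 libraries exchanged, 5 of 6 dystrophic libraries lay above the WT range of this sum and the lowest was at 0 CPM. Among hypertrophic-derived libraries the sum ran from 0 to 553 CPM, and it was 0 in replicate 4, which held the most Cd74 of all libraries. In dystrophic against WT, edgeR called none of the 7 list genes that were fitted. None of these passed an unadjusted p under 0.05 either, which 2.02% of all genes did. B cell markers overlapped, at 1295 to 2619 CPM in dystrophic-derived and 1142 to 2509 CPM in WT-derived libraries, with 12 of 12 genes detected in each condition. Platelet markers summed to 9679 to 21838 CPM in dystrophic-derived and 20396 to 31660 CPM in WT-derived libraries. The part of these lists in the level of Cd74 was not tested.

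H2-Aa, the alpha chain of the A molecule (ENSMUSG00000036594.15, chromosome 17, 34282744 to 34287823, minus strand, GRCm38), was detected in 13 of 15 libraries. The WT-derived libraries held 367, 545 and 446 CPM. The dystrophic-derived libraries ran from 201 CPM through a median of 542 to 925 CPM and enclosed the WT range. The hypertrophic-derived libraries spread most widely, from 0 through a median of 219 to 1321 CPM. H2-Aa was at 0 in hypertrophic replicate 1, where 5120128 reads allow at most 0.586 CPM, and at 0 in replicate 5, where the limit was 9.13 CPM.

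H2-Ab1, the beta chain that pairs with H2-Aa (ENSMUSG00000073421.6, chromosome 17, 34257689 to 34269419, plus strand, GRCm38), was detected in 14 of 15 libraries, but 5 of these held only 1 or 2 reads. The WT-derived libraries held 367, 110 and 79.8 CPM, of which the highest rested on 10 reads. The dystrophic-derived libraries ran from 0.746 CPM through a median of 167 to 270.1 CPM. The hypertrophic-derived libraries ran from 0 through a median of 1.63 to 320.0 CPM. The values fell into a group of 9 libraries at 79.8 CPM or above and 6 libraries at 2.22 CPM or below, the latter being dystrophic replicates 3 and 4 and hypertrophic replicates 1, 3, 4 and 5. In dystrophic replicate 3 the partner chain H2-Aa stood at 925 CPM while H2-Ab1 held 2 reads.

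H2-Eb1, the beta chain of the E molecule (ENSMUSG00000060586.11, chromosome 17, 34305867 to 34316674, plus strand, GRCm38), was detected in 14 of 15 libraries. The WT-derived libraries held 477, 234 and 1187 CPM. The dystrophic-derived libraries were the most even, from 390.1 CPM through a median of 617 to 814 CPM, and lay inside the WT range. The hypertrophic-derived libraries ran from 0 through a median of 342 to 1165 CPM. The library at 0 was hypertrophic replicate 4, with a limit of 6.65 CPM, which held the highest levels of Cd74 and H2-Aa of all 15. The alpha chain locus that the tables list as H2-Ea-ps was at 0 in all 15 libraries.

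H2-DMa, the alpha chain of the peptide exchange factor (ENSMUSG00000037649.10, chromosome 17, 34119541 to 34139101, plus strand, GRCm38), was detected in 9 of 15 libraries, 1 of them with a single read. The WT-derived libraries held 0, 57.0 and 1.66 CPM, where the 0 of replicate 1 allows up to 110 CPM. The dystrophic-derived libraries ran from 0 through a median of 108 to 215 CPM, with 5 of 6 detected. Among the hypertrophic-derived libraries, 2 of 6 held the transcript, at 92.2 and 152 CPM, and 4 were at 0. Exons of H2-DMa share 360 of their 3448 bases with Brd2 on the opposite strand, and the sources differ on whether the kit was stranded. Reads of this stretch may therefore have been left out as ambiguous or counted on the other gene.

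**Figure D2:**
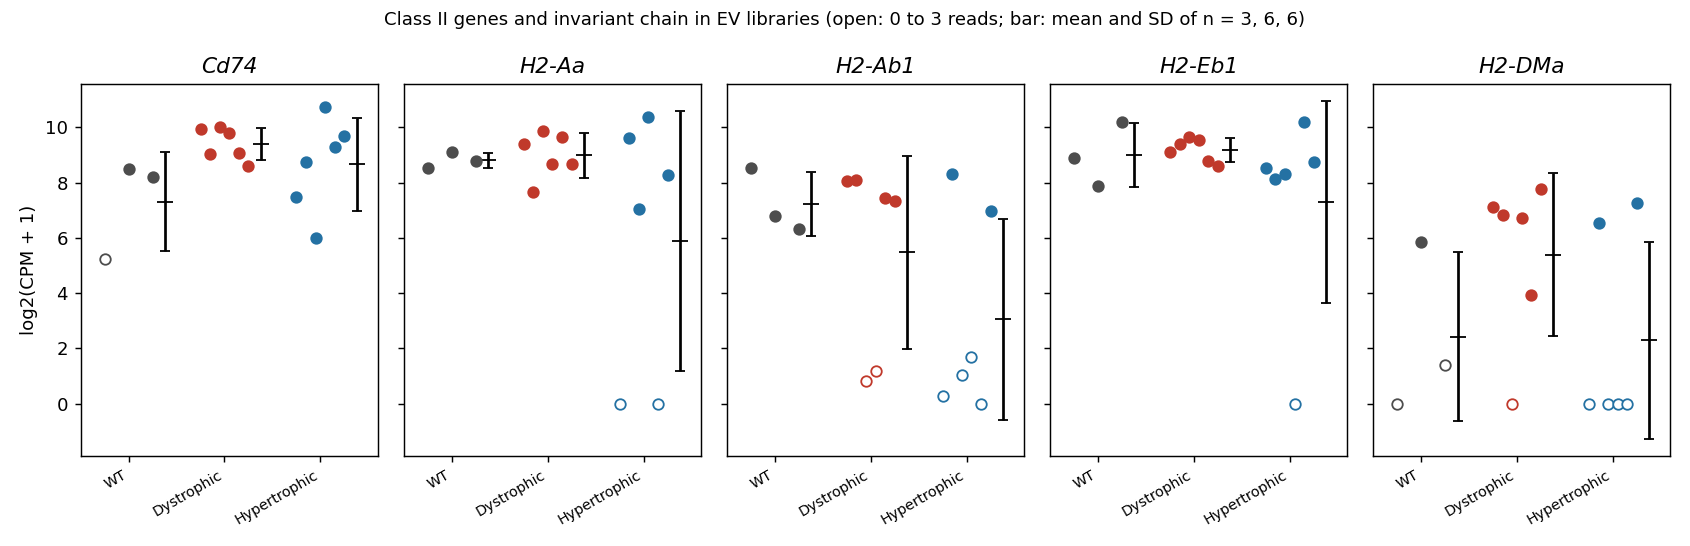
Level of each gene as log2(CPM + 1) by condition, with 1 point for a library, open where it held 0 to 3 reads, and the mean with SD beside the points (n = 3, 6 and 6). For Cd74 the 6 dystrophic-derived points lie above the 3 WT-derived points, and in the other panels the conditions overlap.

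Detection was compared over libraries with Fisher's exact test, two-sided. Cd74 was detected in every library, H2-Aa in 3 of 3 WT-derived, 6 of 6 dystrophic-derived and 4 of 6 hypertrophic-derived libraries, and H2-DMa in 2 of 3, 5 of 6 and 2 of 6. The smallest exact p among the 5 genes was 0.242, for H2-DMa in hypertrophic against dystrophic libraries, a difference of -50 percentage points. This difference became 16.7 percentage points with the 6 libraries exchanged. Without dystrophic replicate 3 it was -66.7 percentage points, with an unadjusted p of 0.0606 by Fisher's exact test. When at least 5 counts were required, H2-Ab1 was found in 3 of 3 WT-derived, 4 of 6 dystrophic-derived and 2 of 6 hypertrophic-derived libraries. Fisher's exact test then gave an unadjusted p of 0.167 for H2-Ab1 in hypertrophic against WT. None of the 5 genes passed in any comparison, and 0.0% of all genes tested passed the adjusted threshold of 0.05 in each. At an unadjusted p under 0.05, none of the 5 genes passed either, beside 0.608% of all genes for dystrophic against WT, 0.178% for hypertrophic against WT and 0.193% for hypertrophic against dystrophic. The smallest p this test can give is 0.0119 for 6 against 3 and 0.00216 for 6 against 6 libraries. Adjusted over 10102 to 12978 genes, such a p passes only where many genes reach it together. The lack of detection calls therefore says little about any single gene.

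Levels were then compared in the fit of edgeR's quasi-likelihood test to 6887 genes in all 15 libraries. In dystrophic against WT, the log2 fold change was 1.34 ± 1.61 (SE) for Cd74, 0.26 ± 1.59 for H2-Aa, 0.06 ± 2.42 for H2-Ab1, -0.27 ± 1.52 for H2-Eb1 and 2.14 ± 3.24 for H2-DMa. The estimate for H2-DMa was 6.04 without WT replicate 2, the only WT-derived library with more than 1 read of this gene. The adjusted p of edgeR was 0.872 for Cd74, 0.975 for H2-DMa and 1 for the other members. None of the 5 genes was called, also not at an unadjusted p under 0.05, which 2.02% of all genes passed, while 0.0145% passed the adjusted threshold. DESeq2 called none of the 5 and 13.5% of all genes.

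In hypertrophic against WT, the log2 fold change was 0.74 ± 1.57 for Cd74, -0.54 ± 1.54 for H2-Aa, -0.84 ± 2.35 for H2-Ab1, -1.07 ± 1.49 for H2-Eb1 and 0.90 ± 3.03 for H2-DMa. None of the 5 was called by edgeR, where the lowest adjusted p was 0.889 for H2-Eb1, and none passed an unadjusted p under 0.05. Of all genes, 0.029% passed the adjusted and 8.02% the unadjusted threshold. DESeq2 called none of the 5 and 15% of all genes.

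In hypertrophic against dystrophic, all 5 estimates were below 0, from -0.60 ± 1.24 for Cd74 to -1.23 ± 2.41 for H2-DMa, and the edgeR adjusted p rounded to 1 for each. None of the 5 passed either threshold, which 0.0145% and 12.0% of all genes passed, and DESeq2 called none of the 5 and 3.53% of all genes. The direction did not hold with the 6 libraries exchanged, where 4 of the 5 estimates were above 0 and ranged up to 0.73 for H2-DMa. The 3 comparisons share their libraries, so that their estimates are not independent.

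The median log2 fold change of the 5 genes was 0.26, -0.54 and -0.80 in the 3 comparisons, beside medians of 1.38, 0.66 and -0.52 over all 6887 genes. TMM moved the median of all genes by 0.19, 0.36 and 0.15 relative to plain library size. Within the comparison of dystrophic with WT, the estimate for Cd74 was close to the median of all genes in this fit. Those of H2-Aa, H2-Ab1 and H2-Eb1 were below it. That median moved to 2.08 without WT replicate 1, 8.15 without WT replicate 2 and 5.18 without WT replicate 3. It is thus no steady reference for the members. The SE was larger than the size of each of the 15 estimates. It was derived from the F statistic of the same edgeR test, so this restates that test and adds no separate evidence. The distance of an estimate from the median of all genes was not tested.

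**Figure D3:**
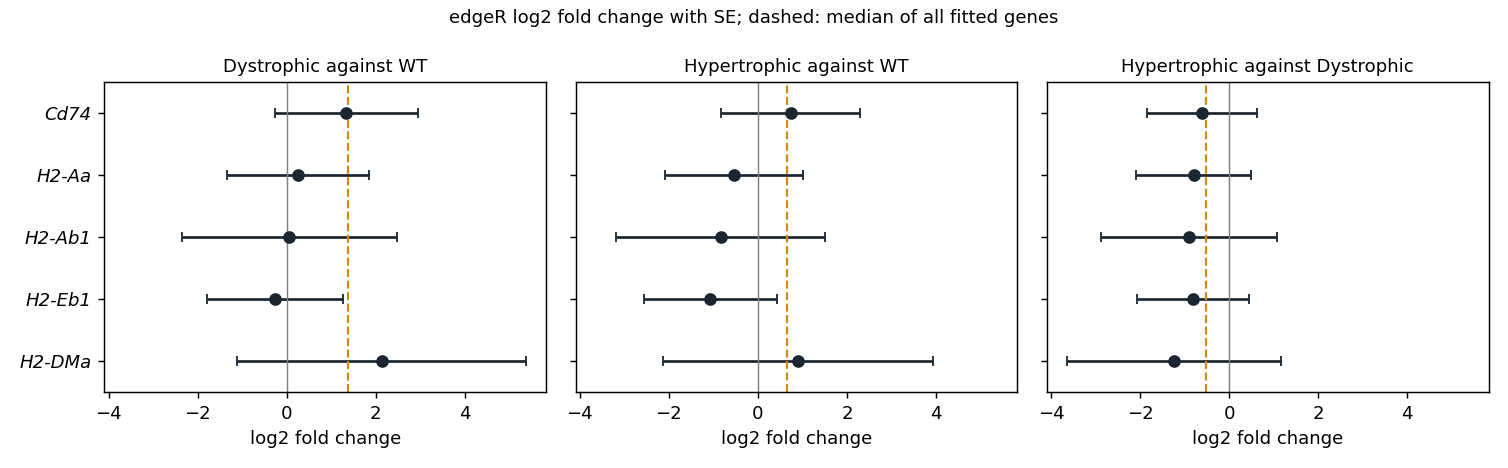
Log2 fold changes of the 5 genes from edgeR with their SE (n = 3 WT-derived, 6 dystrophic-derived and 6 hypertrophic-derived libraries), with the median of all 6887 genes as a dashed line. In each comparison the error bars of all 5 genes cross 0. The SE was derived from the F statistic of the edgeR test.

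The genes were compared with each other per length, as CPM per kilobase of the principal transcript (1410 bases for Cd74, 1128 for H2-Aa, 1212 for H2-Ab1, 1669 for H2-Eb1 and 1658 for H2-DMa). The mean level over 15 libraries was 433 ± 323 (SD) for H2-Aa, 421 ± 316 for Cd74, 322 ± 198 for H2-Eb1, 103 ± 107 for H2-Ab1 and 35.6 ± 43.0 CPM per kilobase for H2-DMa. H2-Aa, Cd74 and H2-Eb1 differed from their neighbours among these 3 by less than either SD. H2-Eb1 stood above H2-Ab1 by more than either SD, and H2-Ab1 above H2-DMa by less than the SD of H2-Ab1 but more than that of H2-DMa. H2-Aa fell to 129 CPM per kilobase, behind Cd74 at 353 and H2-Eb1 at 277, when the union of all annotated exons was used as the length. Within single libraries in which both genes had more than 3 counts, the ratio of H2-Aa to its partner H2-Ab1 per length ran from 0.798 to 6.00 and was above 1 in 8 of 9. That of Cd74 to H2-Ab1 was above 1 in 8 of 8 libraries, from 1.14 to 5.70. For H2-Eb1 to H2-Ab1 it was above 1 in 7 of 9, from 0.633 to 10.8. Cd74 exceeded H2-Aa in 5 of 12 and H2-Eb1 in 8 of 13 libraries. With the exon union as the length, Cd74 exceeded H2-Aa in 12 of 12 libraries and H2-Eb1 and H2-Ab1 in the same numbers as before, and H2-Aa exceeded H2-Ab1 in 7 of 9.

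The levels of the 5 genes did not follow each other closely. Over the 15 libraries, which differ in depth and in genes detected, Spearman's rho between pairs ran from -0.19 for H2-Aa with H2-Eb1 to 0.52 for H2-Ab1 with H2-DMa. It was 0.51 for Cd74 with H2-Aa and 0.27 for the partner chains H2-Aa and H2-Ab1. Over all pairs of the 6887 fitted genes, the median rho was 0.23 and the 95th percentile was 0.66. These values are descriptions across libraries that share their depth.

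The genes whose CPM was most like that of each member were drawn from the same 6887. For Cd74 they were the ribosomal protein genes Rplp0 and Rps9 with a rho of 0.80 each, then Naca, the chemokine gene Ccl5 and Stard7, down to 0.78. For H2-Aa they were Selt, the chaperone gene Hsp90b1, Klhl6, Atp5h and Efr3a, from 0.83 to 0.80. For H2-Ab1 they were RP23-349K15.2, Celf2, Cdr2, Samm50 and Pon2, from 0.90 to 0.83. For H2-Eb1 they were the cyclin gene Ccni with 0.80 and the ribosomal protein genes Rpl8, Rps18, Rps27rt and Rps27, down to 0.78. For H2-DMa they were the transcription factor gene Mef2d, Gapdh, Prkch, Rtp4 and Sash3, from 0.92 to 0.87. No other member and no gene of the pathway lists was among these 25.

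Other genes of the pathway were read from fixed lists. The 23 further listed genes covered class II chains, peptide loading, transcription, endosomal processing and ubiquitination. Of these, 17 passed the filter on low counts, and edgeR called none as higher and none as lower in any of the 3 comparisons. At an unadjusted p under 0.05 stood H2-Ob and Creb1 in dystrophic against WT, H2-Ob and Ifi30 in hypertrophic against WT, and Ifi30 in hypertrophic against dystrophic. These are 2, 2 and 1 of 17 genes, beside 2.02%, 8.02% and 12.0% of all genes.

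H2-Ob, the beta chain of H2-DO, which restrains H2-DM, was detected in 11 libraries. Among the WT-derived libraries it had 0, 0 and 1 read. It reached 632 CPM in dystrophic-derived libraries, with a median of 82.0 CPM and 5 of 6 detected, and 455 CPM in hypertrophic-derived libraries, with a median of 138 CPM and 5 of 6 detected. The edgeR adjusted p was 0.433 for dystrophic and 0.430 for hypertrophic against WT. Its partner H2-Oa was detected in 7 libraries.

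The beta chains of H2-DM, H2-DMb1 and H2-DMb2, were detected in 3 and 6 libraries. Reads that fit both of these near-identical copies may have been left out of the gene counts. H2-Eb2 was detected in 3 libraries, and the class II coactivator Ciita in 4, none of them WT-derived, as was the case for 54.8% of the 13281 genes with a count. Among the processing genes, the cathepsin genes Ctsd and Ctsb were detected most often, in 14 and 11 libraries. Ctsd averaged 185 ± 316 CPM (SD) over the 3 WT-derived, 281 ± 282 CPM over the 6 dystrophic-derived and 527 ± 440 CPM over the 6 hypertrophic-derived libraries. March8, a ubiquitin ligase gene of the family that turns over class II molecules, was detected in 10 libraries, at 435 ± 368 CPM in WT-derived and 48.8 ± 52.6 CPM in dystrophic-derived libraries, which edgeR did not call (adjusted p = 0.536).

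Markers of cells that express class II were summed in the same libraries. For B cells, 12 of 13 listed symbols were matched and all 12 were detected, with sums of 580 to 3482 CPM, led by the immunoglobulin genes Ighm and Igkc. Of the 10 dendritic cell markers, Flt3, Xcr1, Siglech, Batf3 and Cd209a were at 0 in all 15 libraries, the median of the sum was 0 and the maximum 169 CPM. The most abundant of the remaining ones were Ccr7 and Fscn1, detected in 5 and 6 libraries. The monocyte and macrophage list, with 9 of 10 symbols matched, summed to 203 to 3432 CPM, almost all of it from the lysozyme gene Lyz2, present in 15 of 15 libraries, with Ccr2 next in 7 libraries and Fcgr1 at 0 in all. T cell markers, led by Trbc2 and Cd3d, summed to 0 to 1591 CPM. By comparison, platelet markers summed to 9679 to 34596 CPM and erythroid markers to 22933 to 155950 CPM. The part of any of these cell types in the class II transcripts was not tested.

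**Figure D4:**
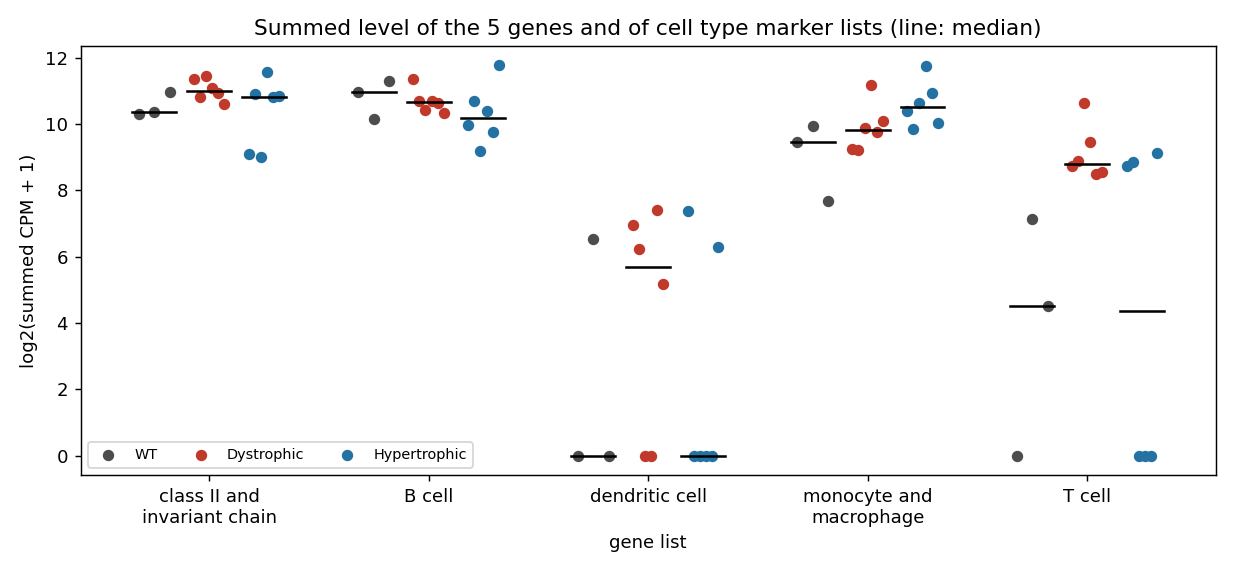
Summed level of the 5 class II and invariant chain genes and of 4 lists of cell type markers as log2(summed CPM + 1), with 1 point for a library coloured by condition and the median as a line. B cell markers were present in every library, and the sum of dendritic cell markers had a median of 0 CPM. T cell markers were above the WT-derived range in all 6 dystrophic-derived libraries, and in 5 of 6 with the 6 libraries of crossed numbers exchanged.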

How the data were processed

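Each library gave 1 table of raw counts, the number of reads that the authors counted on each gene symbol, deposited without normalization. The submitters' processing notes name TopHat, HTSeq, DESeq and mm10. The 5 summary lines of a table, 57.9% to 99.2% of its numbers, were left out. CPM are counts scaled to 1000000 reads on genes. Gene positions and lengths came from GENCODE M21 (GRCm38), in which all 5 members were found, and the choice of the principal transcript as length was made after the data were seen, as the exon union holds retained introns.

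The members and gene lists were chosen with earlier results of these data known. The text names the 5 members in every library, listed pathway genes by list counts with values for those detected in the most libraries, the 5 fitted genes of highest Spearman rho with each member, and the 2 most abundant genes of each blood cell list.

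Counts were tested with edgeR 4.0.16 (limma 3.58.1, R 4.3.3) by the quasi-likelihood test with TMM and filterByExpr, all 15 libraries and the 3 conditions without covariates. Benjamini-Hochberg adjusted p under 0.05 over all 6887 genes was a call. Detection, at least 1 count, was tested with Fisher's exact test over all genes with a count in the pair, and single levels with exact two-sided permutation tests on log2(CPM + 1), from scipy 1.17.1. The procedures were tested on simulated data. For edgeR the simulated spread between libraries was smaller than in these counts, where the common biological coefficient of variation was 3.04. Recovery of changes at this larger spread was not tested. DESeq2 1.42.0, other scalings, filters, subsets of libraries and leaving out each library were alternatives. Labels give no replicate numbers, so numbers follow the order of the samples and pair nothing. The libraries were grouped by their genotype label.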

Additional observations from a re-analysis of the deposited data

Results flagged for a closer look

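The level of H2-Eb1 in hypertrophic replicate 5, 1165 CPM, stood apart from the other 5 hypertrophic-derived libraries, with a gap to the next value of 0.632 of the range of the group, above the Dixon limit of 0.625 for 6 libraries. The next lower value was 429 CPM, and WT replicate 3 held a similar level of 1187 CPM. This library had 328710 reads on genes and 814 genes detected, and H2-Aa, H2-Ab1 and H2-DMa were at 0 in it. It was 1 of 10 groups of values examined. Chance flags about 1 in 20 where values are normally distributed, and the rate for CPM with zeros was not tested.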

How the results depend on the processing

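None of the 5 genes was called in any of 26 alternative fits for any comparison, and none reached an unadjusted p under 0.05 in them (lowest adjusted p of edgeR or DESeq2 0.506 for dystrophic against WT, 0.595 for hypertrophic against WT and 0.887 for hypertrophic against dystrophic). The number of all genes called was 1, 2 and 1 in the 3 comparisons. It became 933, 1031 and 243 by DESeq2, 0, 0 and 0 both without a filter on low counts and without mitochondrial and hemoglobin genes, and, for dystrophic against WT, 3 without TMM. With the 6 libraries exchanged it was 2 for dystrophic against WT and 0 for hypertrophic against dystrophic, with the 9 matching libraries 3 and 0, and with the 9 libraries of the lower title series 6 and 2. Leaving out 1 library gave 1 to 2, 1 to 3 and 0 to 2 genes. No alternative gave a detection call, but with either set of 9 libraries the smallest p of Fisher's exact test is 0.1, so that these could give none. In the other settings a call would also need many genes at the smallest p together, so the lack of calls says little there too. The cause of these shifts was not tested.

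Some of the log2 fold changes of the members changed direction. For dystrophic against WT, H2-Aa was -0.21 with the 6 libraries exchanged, H2-Ab1 was -0.17 by DESeq2, -0.31 without TMM, -0.012 with TMMwsp, -0.053 with the exchange and -1.74 as a difference of mean log2(CPM + 1), and H2-Eb1 was 0.012 without a filter and 0.19 on log2(CPM + 1). For hypertrophic against WT, Cd74 was -0.20 in the lower title series, H2-Aa was 0.072 by DESeq2 and 0.031 with the exchange, and H2-DMa was -0.12 on log2(CPM + 1). For hypertrophic against dystrophic, the exchange gave 0.53 for Cd74, 0.24 for H2-Aa, 0.73 for H2-DMa and 0.16 for H2-Eb1. Leaving out 1 library gave ranges that crossed 0 for dystrophic against WT in H2-Aa (-0.069 to 0.59), H2-Ab1 (-0.15 to 0.46) and H2-Eb1 (-0.778 to 0.995), and for hypertrophic against WT in H2-DMa (-0.22 to 4.69) and H2-Eb1 (-1.52 to 0.18). H2-DMa for dystrophic against WT ran from 1.24 to 6.04 over all alternatives, with the highest value without WT replicate 2. The detection difference of H2-DMa became -16.7 percentage points for dystrophic against WT and 16.7 for hypertrophic against dystrophic with the exchange, and ran from -16.7 to 33.3 for dystrophic against WT with 1 library left out.

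The number of dystrophic-derived libraries with Cd74 above every WT-derived library, 6, became 5 with TMM factors, 5 without mitochondrial and hemoglobin genes and 4 with the exchange. These alternatives were chosen after seeing the data. Leaving out any 1 library could not change the separation, so it gives no test of it. No paired analysis was possible because the labels give no replicate numbers. In WT replicate 1, with 27227 reads, a count of 0 allows levels of up to 110 CPM.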
